A study of Mus musculus with 8 samples.

Results

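The enzymes that make prostaglandins and leukotrienes were examined in trigeminal ganglia of daDREAM transgenic and control mice. Of 10 listed genes, 8 were measured by 12 probe sets that the platform annotation assigns to that gene alone, among 18193 genes and 45037 probe sets in all. The measured genes were Ptgs2, Ptges, Ptges2, Ptgds, Hpgds, Ptgis, Alox5 and Alox5ap. Both probe sets of Ptges3 also carry the symbol of a pseudogene, and no probe set carries the symbol Ptgs1, so these 2 genes were not analysed here.

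RNA was hybridised to Affymetrix whole-genome mouse arrays, 4 with ganglia of daDREAM transgenic mice (all titled tg16) and 4 with ganglia of control mice. Both groups were adult male mice of the C57B/6XCBA strain, studied in the light phase. Kcnip3 encodes DREAM, a repressor of transcription that leaves DNA when it binds calcium, and daDREAM is a mutant of it that is known to act as a dominant active repressor. The sources used here do not say which promoter drives the transgene, how many founder lines there were or whether an array holds 1 animal or a pool. The p-values therefore speak of the spread among these arrays, which may be technical. Signals were deposited on a log2 scale after RMA, and each difference is daDREAM minus control on that scale.

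Prostaglandins and leukotrienes are signalling lipids made from arachidonic acid, which lipases release from membrane lipids. Cyclooxygenases (Ptgs1, Ptgs2) turn it into prostaglandin H2, which terminal synthases convert to prostaglandin E2 (Ptges, Ptges2, Ptges3), D2 (Ptgds, Hpgds) or prostacyclin (Ptgis), while 5-lipoxygenase (Alox5) with its partner Alox5ap opens the path to leukotrienes. In sensory ganglia these lipids are known for making pain-sensing neurons more excitable during inflammation, and cyclooxygenase is the target of aspirin-like drugs.

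The tissue label was checked first, and 11 of 11 measured sensory neuron markers lay above the background yardstick described below, and 0 of them passed the test between groups. Several arrays stood apart. The labels say male, yet the brightest probe set of Xist, the RNA that silences an X chromosome in females, read 11.51 on daDREAM replicate 4 and 10.20 and 11.72 on control replicates 3 and 4, against 6.10 to 6.49 on the other 5. The pituitary hormone gene Gh ranged from 9.04 to 13.43 over daDREAM arrays and from 9.08 to 11.15 over control arrays, with the most on daDREAM replicates 3 and 4 (12.50 and 13.43) and control replicate 3. Acta1, an actin of skeletal muscle, reached 9.20 and 9.40 in control replicates 1 and 3 but at most 7.07 elsewhere, and Gfap, the filament protein of astrocytes, read 10.77 to 11.24 over daDREAM arrays against 8.29 to 10.22 over control arrays at its brightest probe set, lowest on control replicates 1 and 4 (difference 1.58, limma adjusted p = 0.0660). The dimmest Gfap probe set read 8.82 to 9.15 over daDREAM arrays against 5.68 to 5.98 over control arrays and passed (difference 3.15, limma adjusted p = 6.22e-09 over probe sets). The remaining Gfap probe set, brighter than the dimmest, averaged 10.02 in daDREAM and 9.365 in control ganglia. Its groups overlapped and it did not pass (difference 0.65, limma adjusted p = 0.307 over probe sets). Kcnip3 read 10.26 ± 0.07 in daDREAM and 10.23 ± 0.15 in control ganglia (SD, n = 4 each) at its brighter probe set. The other averaged 9.17 ± 0.18 in daDREAM and 8.89 ± 0.32 in control ganglia (difference 0.27, limma adjusted p = 0.346 over probe sets), and the mean of both gave a difference of 0.15 (limma adjusted p = 0.453). This does not check the labels, because the sources used here do not say whether these probe sets read the transgene.

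Of the 8 measured enzymes, 0 rose, 1 fell and 7 did not pass the test (limma, adjusted p under 0.05 over all genes). The one that fell was Alox5, 5-lipoxygenase, which was 1.29-fold lower in daDREAM ganglia. Over all genes 2.00% passed, 0.984% as higher and 1.02% as lower, so the count of 1 in 8 rests on a single gene. At an unadjusted p under 0.05 the count was also 1 of 8, against 18.2% of all genes. Of the 12 probe sets 1 passed and was lower, where 2.74% of all probe sets passed, 1.42% as higher and 1.32% as lower. At an unadjusted p under 0.05 there were 3 of 12, against 18.5% of all probe sets, and the groups did not overlap in 1 of 12, against 11.0%. The median difference of the 8 genes was 0.03, against 0.00 for all genes, and 5 values were above 0 and 3 below.

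**Figure D1:**
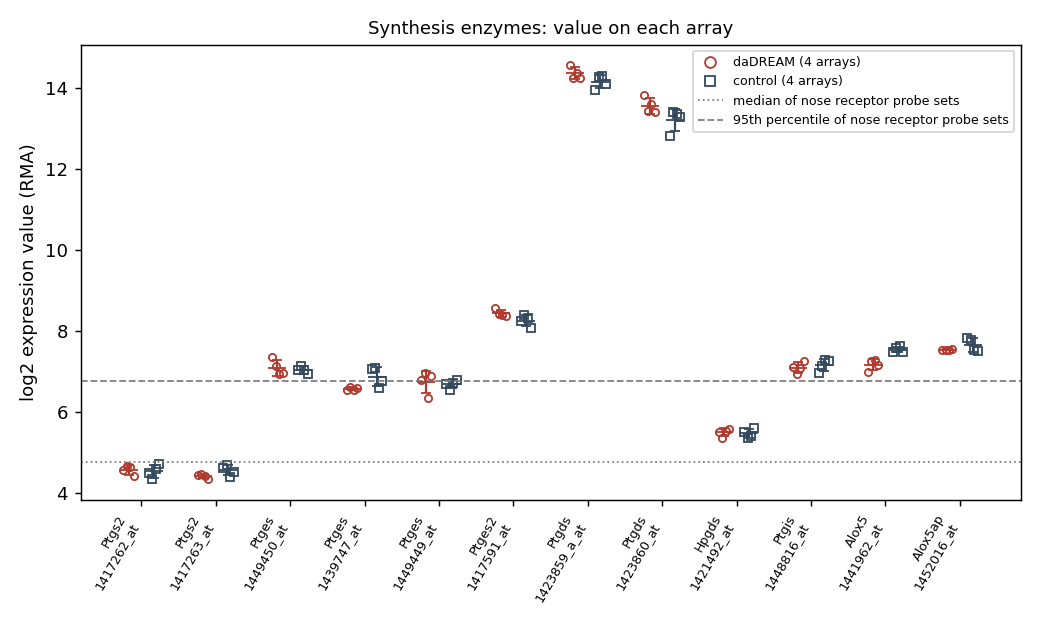
Log2 expression value (vertical axis) of each of the 12 probe sets of the 8 synthesis enzymes on each array, with daDREAM as circles left of control as squares, and mean ± SD as bars (n = 4 each). Dotted and dashed lines mark the median (4.78) and 95th percentile (6.78) of olfactory and vomeronasal receptor probe sets; Ptgs2 and Hpgds lie below the dashed line, and Alox5 is the one gene whose groups separate.

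RMA gives no detection call, so 80 probe sets of olfactory and vomeronasal receptor genes, which belong to the nose, served as a yardstick for background. Their mean signal had a median of 4.78 and a 95th percentile of 6.78, a level that 43.8% of all probe sets did not reach. Of the 12 enzyme probe sets, 7 lay above that 95th percentile, covering 6 of the 8 genes. Ptgs2 and Hpgds lay below it at every probe set, so a change in their transcripts could be missed.

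Ptgs2, the inducible cyclooxygenase (COX-2), sat at background. Its brighter probe set read 4.56, 4.67, 4.65 and 4.42 on daDREAM arrays, against 4.51, 4.34, 4.59 and 4.73 on control arrays. The groups overlapped, and 49 of the 80 nose receptor probe sets were brighter. The difference was 0.03 (95% interval -0.17 to 0.24, limma adjusted p = 0.883). The other probe set averaged 4.43 ± 0.05 in daDREAM and 4.56 ± 0.12 in control ganglia (SD, n = 4 each), with a difference of -0.14 (adjusted p = 0.374 over probe sets), so the pair did not share a sign.

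Among the synthases of prostaglandin E2, Ptges, the inducible microsomal enzyme coupled to COX-2, was read by 3 probe sets close to the background yardstick. The brightest gave 7.36, 7.15, 6.93 and 6.96 on daDREAM arrays, against 7.03, 7.15, 7.04 and 6.93 on control arrays. These overlapped fully, with a difference of 0.06 (95% interval -0.16 to 0.28, limma adjusted p = 0.773). A second one read 6.54, 6.62, 6.55 and 6.60 on daDREAM arrays, against 7.06, 7.09, 6.59 and 6.77 on control arrays. All daDREAM values there lay within a narrow band, and control replicates 1 and 2 stood above the rest. Its difference of -0.30 (95% interval -0.54 to -0.06) missed the threshold (limma adjusted p = 0.173 over probe sets), although it passed without the arrays with the most Xist, at -0.51 (limma adjusted p = 0.0235). The last probe set differed by 0.06 (adjusted p = 0.827 over probe sets).

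Ptges2, the other membrane-associated synthase of prostaglandin E2, was clearly above background. It read 8.56, 8.42, 8.39 and 8.38 on daDREAM arrays, against 8.24, 8.39, 8.33 and 8.08 on control arrays. The highest control value lay within the daDREAM range, so the groups overlapped. The difference of 0.18 (95% interval -0.01 to 0.36) did not pass (limma adjusted p = 0.291), and the exact permutation test over the 70 ways of assigning the arrays gave a two-sided p of 0.0857, where 0.0286 is the smallest it can give.

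Ptgds, the lipocalin-type synthase of prostaglandin D2 that is secreted and known as a product of the meninges and glia, was far above background at both of its probe sets. Its brighter probe set read 14.56, 14.25, 14.38 and 14.25 on daDREAM arrays, against 13.95, 14.28, 14.30 and 14.09 on control arrays. The highest value was on daDREAM replicate 1 and the lowest on control replicate 1, with overlap between. The difference was 0.21 (95% interval -0.02 to 0.43, limma adjusted p = 0.310). These values lay near the top of the scale, which ended at 14.84.

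The second Ptgds probe set read 13.83, 13.43, 13.60 and 13.40 on daDREAM arrays, against 12.82, 13.40, 13.35 and 13.29 on control arrays. The groups met at 13.40. The difference of 0.35 (95% interval 0.05 to 0.65) did not pass (limma adjusted p = 0.202 over probe sets). Thus both probe sets leaned the same way, with the same extremes on daDREAM replicate 1 and control replicate 1, and neither reached the threshold.

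Markers of the meninges varied on the same arrays. Of 10 measured meninges and fibroblast markers, 1 rose, against 0.984% of all genes. It was the GABA transporter Slc6a13 (limma adjusted p = 0.0382). Its level was 8.32 ± 0.16 in daDREAM and 7.86 ± 0.14 in control ganglia (SD, n = 4 each). An unadjusted limma p under 0.05 was found for 6 of the 10, in both directions, against 18.2% of all genes. The groups did not overlap in 2 of 10, the higher Slc6a13 and the lower Dcn, against 10.7% of all genes. Slc47a1, Igf2 and Aldh1a2 differed by 0.60, 0.46 and 0.36 without passing, whereas the fibroblast genes Dcn and Lum read -0.50 and -0.50, also without passing. The summed linear level of the list ran from 14534 to 26740 over daDREAM arrays and from 18802 to 25950 over control arrays, and all 10 markers lay above the background yardstick. Central nervous system markers summed to between 9024 and 12842 in daDREAM and between 4523 and 9119 in control ganglia. Aqp4 passed the test, as 1 of 7 against 2.00% of all genes, and all 7 differences were above 0, with a median of 0.755. Of these markers 5 had an unadjusted limma p under 0.05, against 18.2% of all genes. Their groups did not overlap in 2 of 7, against 10.7% of all genes. The part of either list in the Ptgds values was not tested. In whole ganglia, fewer cells of a type and less RNA per cell cannot be told apart, here and for every gene below.

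**Figure D2:**
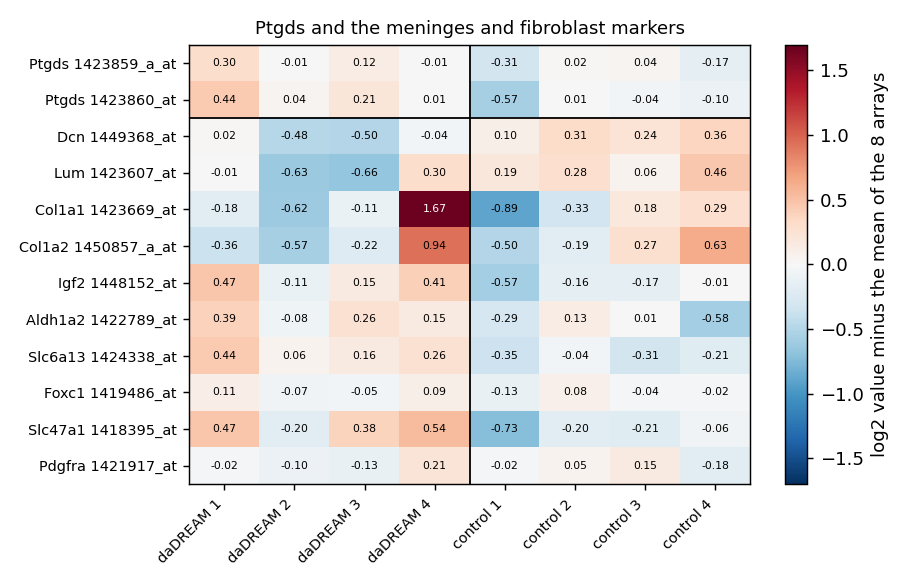
Log2 value minus the mean of the 8 arrays (colour and printed number) for both Ptgds probe sets, above the line, and the 10 meninges and fibroblast markers, below it; columns are arrays, daDREAM left of control. Control replicate 1 is lowest for both Ptgds probe sets and for Igf2, Slc6a13, Slc47a1, Foxc1 and Col1a1. It is not lowest for Aldh1a2, Col1a2, Pdgfra, Dcn and Lum.

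Hpgds, the other synthase of prostaglandin D2, is known from mast cells, macrophages and other blood-derived cells. Its probe set read 5.51, 5.37, 5.54 and 5.59 on daDREAM arrays, against 5.50, 5.37, 5.42 and 5.61 on control arrays. Signal was below the background yardstick, the groups overlapped fully, and the difference was 0.03 (95% interval -0.15 to 0.20, limma adjusted p = 0.882).

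Ptgis, prostacyclin synthase, is known from endothelium and smooth muscle. It read 7.11, 6.94, 7.08 and 7.26 on daDREAM arrays, against 6.96, 7.14, 7.29 and 7.26 on control arrays, just above the yardstick and overlapping. The difference was -0.06 (95% interval -0.27 to 0.14, limma adjusted p = 0.748). Endothelial and mural cell markers summed to between 6630 and 7606 in daDREAM and between 6752 and 7361 in control ganglia. Of these 10 markers 1 passed, the tight junction gene Cldn5, higher by 0.57, against 2.00% of all genes. The groups did not overlap in 2 of 10, against 10.7% of all genes.

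On the leukotriene side, Alox5 oxygenates arachidonic acid to the precursor of all leukotrienes and is known from granulocytes, mast cells and macrophages. A single probe set measured it. It read 6.98, 7.26, 7.29 and 7.16 on daDREAM arrays, against 7.48, 7.58, 7.63 and 7.49 on control arrays. Every daDREAM value lay below every control value; the groups did not overlap in 10.7% of all genes. Alox5 averaged 7.17 ± 0.14 in daDREAM and 7.55 ± 0.07 in control ganglia (SD, n = 4 each), a difference of -0.37 (SE 0.08, 95% interval -0.56 to -0.19, limma adjusted p = 0.0467). The exact two-sided permutation p was 0.0286, the smallest that 70 assignments can give.

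DREAM binds the downstream regulatory element, whose core is GTCA, so the promoter of the synthesis enzyme that fell is shown. RefSeq windows of GRCm38.p6, from 250 bases before to 50 after a gene's start, were searched for GTCA on both strands, that is, for GTCA or TGAC in the sense sequence. Windows were found for 6 of the 8 measured enzymes, and all 6 held a match, as did 85.2% of 32851 windows. The Alox5 window is chr6:116461129-116461428 on the minus strand, with 1 match, in capitals, that begins 190 bases before the start and overlaps no other. A match is a description of the letters and not a binding site.
Alox5: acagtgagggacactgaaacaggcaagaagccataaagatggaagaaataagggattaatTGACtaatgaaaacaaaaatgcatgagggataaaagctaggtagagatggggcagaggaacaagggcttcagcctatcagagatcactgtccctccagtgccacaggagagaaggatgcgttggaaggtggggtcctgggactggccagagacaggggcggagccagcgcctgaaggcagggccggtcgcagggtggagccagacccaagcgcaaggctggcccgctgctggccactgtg

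The fall of Alox5 was close to the threshold. The difference stayed between -0.43 and -0.31 under 20 alternatives, but passed in 6 of them. Without any 1 of the 8 arrays it did not pass, with limma adjusted p from 0.0581 without control replicate 4 to 0.111 without daDREAM replicate 1. It also did not pass without the arrays with the most Gh (-0.40, adjusted p = 0.265), the most Xist (-0.35, adjusted p = 0.222), the most Acta1 (-0.36, adjusted p = 0.194) or the least Gfap (-0.43, adjusted p = 0.101). Both groups lay within 1 log2 unit above the 95th percentile of the nose receptor probe sets, and 2 of those 80 were brighter than Alox5.

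**Figure D3:**
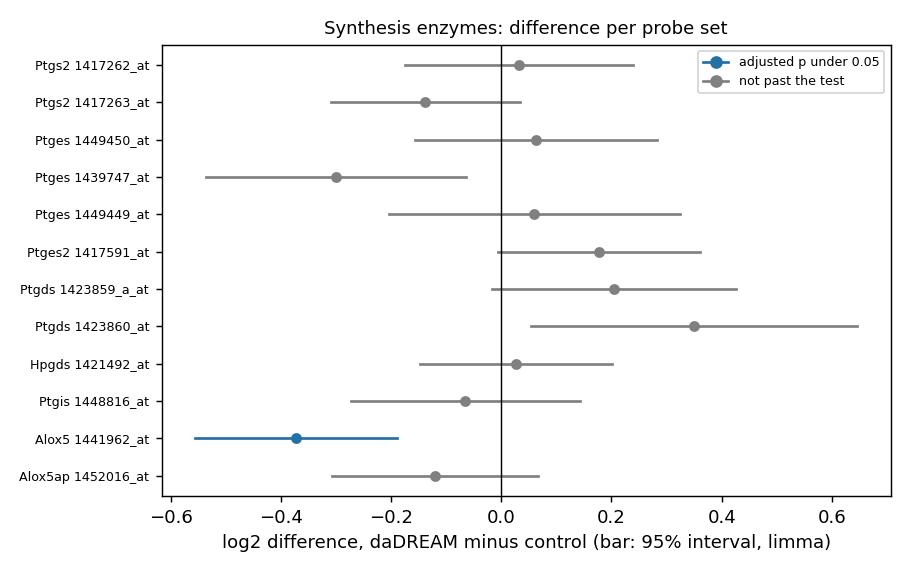
Log2 difference, daDREAM minus control (horizontal axis), of each of the 12 probe sets, with its 95% interval from limma as a bar. Alox5, at -0.37, is the only one past the test over all probe sets; one Ptges and one Ptgds probe set have intervals on 1 side of 0 without passing.

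Alox5ap, the membrane protein that hands arachidonic acid to 5-lipoxygenase, read 7.54, 7.53, 7.53 and 7.56 on daDREAM arrays, against 7.82, 7.78, 7.54 and 7.50 on control arrays. The daDREAM values were nearly identical, control replicates 1 and 2 lay above them, and control replicates 3 and 4 lay at or just below them. The difference was -0.12 (95% interval -0.31 to 0.07, limma adjusted p = 0.471). Whether Alox5 and Alox5ap differ in their response was not tested.

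Markers of the blood-derived cells that carry 5-lipoxygenase did not all move one way. Of 12 macrophage markers 0 passed, and their summed linear level ran from 4725 to 5787 in daDREAM and from 4380 to 5524 in control ganglia. Of 9 neutrophil markers 2 rose, S100a8 by 1.03 and S100a9 by 1.08, and the sums were 1146 to 1411 in daDREAM and 857 to 1145 in control ganglia. Without these 2 genes the sums were 673 to 830 in daDREAM and 656 to 830 in control ganglia, and over the 9 markers 5 values were above 0 and 4 below. Of all genes 0.984% rose. Mast cell markers summed to between 972 and 1269 in daDREAM and between 1181 and 1432 in control ganglia. Of 9 mast cell markers 0 passed by limma and 2 had an unadjusted p under 0.05, where 18.2% of all genes did. Their median difference was -0.14, with 6 values below 0, the same sign as Alox5, and 6 of the 9 lay under the yardstick. The protease genes Tpsab1, Cma1 and Mcpt4 read -0.41 (adjusted p = 0.0782), -0.51 (adjusted p = 0.261) and -0.24 (adjusted p = 0.297). Cpa3, Tpsb2 and Kit read -0.15, -0.14 and -0.12. Of those below 0, Tpsab1 (5.96 over all arrays), Cma1 (6.54) and Tpsb2 (6.61) lay under the yardstick. The Fc receptor genes Fcer1a (4.60 over all arrays) and Ms4a2 (5.42) lay at background and differed by 0.04 and 0.03. Hdc (6.69), also under the yardstick, differed by 0.03. Of 9 lymphocyte markers 1 fell, Ighm by 1.24 on the log2 scale, against 1.02% of all genes. The groups did not overlap in 2 of these 9, against 10.7% of all genes. Lymphocyte sums were 1242 to 1411 in daDREAM and 1713 to 1838 in control ganglia. Without Ighm the sums were 900 to 1062 in daDREAM and 942 to 1024 in control ganglia, and the median difference of the 9 was -0.08. Their part in the Alox5 difference was not tested.

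The 5 genes whose pattern over the 8 arrays was most like that of Alox5, by root mean square difference of log2 values centred on each gene's own mean, were Zswim4 (0.05), Dgke (0.06), 4930526F13Rik (0.07), Oprm1 (0.07) and Rsad2 (0.07). Dgke, a diacylglycerol kinase with a preference for arachidonoyl lipids, averaged 7.89 ± 0.08 in daDREAM and 8.26 ± 0.07 in control ganglia (SD, n = 4 each), a difference of -0.37. Since these 5 genes were chosen for a pattern in which the groups separate, their differences are a description and no test of them is given. The mu-opioid receptor gene Oprm1 read 5.83 to 6.24 on daDREAM arrays and 6.18 to 6.41 on control arrays, below the yardstick, with a difference of -0.28. Rsad2, an interferon-induced antiviral gene, differed by -0.31.

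Around the synthesis enzymes, 55 of 61 listed pathway genes were measured: 2 rose, 1 fell and 52 did not pass, at a median difference of -0.04. That is 3 of 55 against 2.00% of all genes. The genes that changed were Mgll and Pla2g6, which release fatty acids from lipids, and Hpgd, which inactivates prostaglandins.

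**Figure D4:**
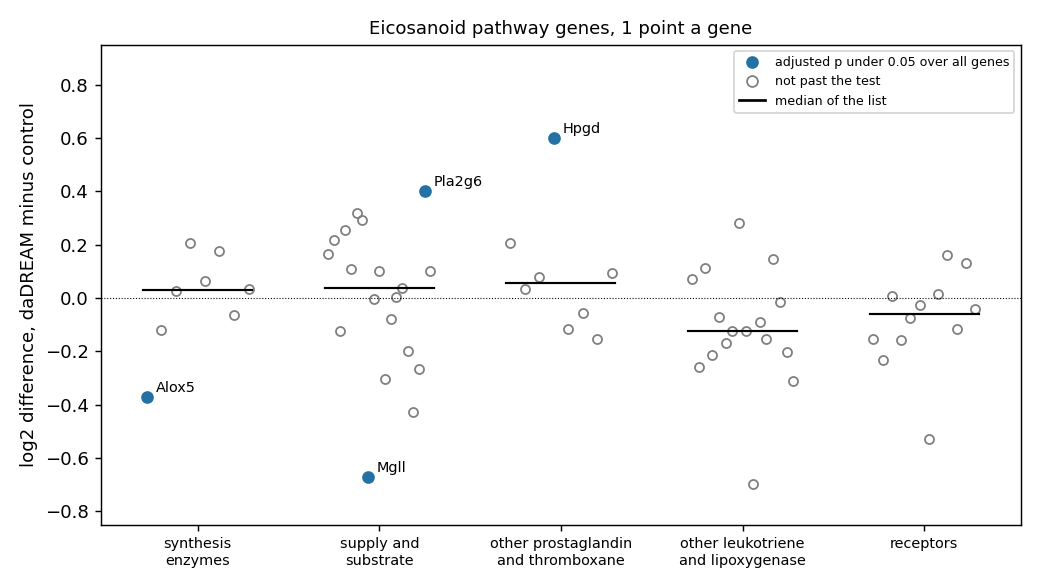
Log2 difference, daDREAM minus control (vertical axis), of each measured gene of the synthesis enzymes (8) and of 4 pathway lists (19, 8, 16 and 12 genes), with 1 point a gene and a bar at each list's median. Filled points passed the test over all genes: Hpgd (0.60) and Pla2g6 (0.40) higher, Mgll (-0.67) and Alox5 (-0.37) lower.

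Of 19 genes listed for eicosanoid supply and substrate, 1 rose and 1 fell, against 0.984% and 1.02% of all genes. An unadjusted limma p under 0.05 was found for 10 of 19, against 18.2% of all genes. The groups did not overlap in 7 of 19, against 10.7% of all genes. Mgll, monoacylglycerol lipase, which breaks down the endocannabinoid 2-arachidonoylglycerol and so frees arachidonic acid, was 1.59-fold lower. Its brightest probe set read 10.19, 10.08, 10.21 and 10.40 on daDREAM arrays, against 10.61, 10.95, 11.08 and 10.93 on control arrays. The groups did not overlap, and the difference was -0.67 (SE 0.11, 95% interval -0.91 to -0.44, limma adjusted p = 0.00631).

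Other probe sets of Mgll bore on the same gene. The next brightest averaged 9.58 ± 0.10 in daDREAM and 10.36 ± 0.21 in control ganglia (SD, n = 4 each), lower by 0.78 on the log2 scale (limma adjusted p = 0.00157 over probe sets). Another averaged 9.28 ± 0.12 in daDREAM and 9.92 ± 0.18 in control ganglia (SD, n = 4 each; difference -0.65, limma adjusted p = 0.00363 over probe sets). Thus 3 of 4 probe sets fell, and the dimmest, at 5.84 in daDREAM and 5.81 in control ganglia, lay below the yardstick. Mgll passed without each single array, but not with the unequal-variance test (adjusted p = 0.158). It also did not pass by limma without the arrays with the most Gh (-0.70, adjusted p = 0.0883) or the most Xist (-0.62, adjusted p = 0.0521).

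Pla2g6, the calcium-independent phospholipase A2, was 1.32-fold higher. It read 9.25, 9.21, 9.17 and 9.31 on daDREAM arrays, against 8.69, 8.92, 9.0 and 8.73 on control arrays, without overlap (difference 0.40, SE 0.08, limma adjusted p = 0.0340). Another probe set was also higher, by 0.54, without overlap (limma adjusted p = 0.0278 among probe sets). The last, brighter than that one, averaged 7.86 in daDREAM and 8.07 in control ganglia, above the yardstick. It went the other way without overlap, by -0.21, and did not pass (limma adjusted p = 0.204 among probe sets). Pla2g6 did not pass without control replicate 1 or 4 or any 1 of the daDREAM arrays (limma adjusted p from 0.0674 to 0.0963), with renewed quantile normalization (0.33, adjusted p = 0.0525), with the unequal-variance test (adjusted p = 0.248), with the mean of its probe sets (0.24, adjusted p = 0.113), or without the arrays with the most Gh, Xist or Acta1 or the least Gfap (adjusted p from 0.109 to 0.192).

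Of 8 other prostaglandin and thromboxane genes 1 rose, against 0.984% of all genes. At an unadjusted limma p under 0.05 there was 1 of 8, against 18.2% of all genes. The groups did not overlap in 1 of 8, against 10.7%. Hpgd, 15-hydroxyprostaglandin dehydrogenase, which starts the inactivation of prostaglandin E2, was higher in daDREAM ganglia. Its brighter probe set read 7.30, 7.25, 7.15 and 7.38 on daDREAM arrays, against 6.74, 6.73, 6.78 and 6.43 on control arrays. Groups were fully apart, with the daDREAM arrays above the background yardstick and the control arrays, at a mean of 6.67, at or under it, so that the size of the rise is uncertain and no fold is given. The difference was 0.60 (SE 0.09, 95% interval 0.40 to 0.80, limma adjusted p = 0.00510). The other probe set, at 5.51 in daDREAM and 5.55 in control ganglia, was below the yardstick and differed by -0.05, and the mean of both gave 0.28 (limma adjusted p = 0.0410). By Affymetrix naming, the suffix _s_at of the Hpgd probe set that rose means its probes can match transcripts of more than 1 gene. The suffix is shared by the brightest Mgll probe set, the dimmer Pla2g6 probe set that rose and both dimmer Gfap probe sets. Hpgd passed without each single array and without the arrays with the most Xist or Acta1 or the least Gfap. It did not pass without the arrays with the most Gh (0.64, limma adjusted p = 0.0987) or with the unequal-variance test (adjusted p = 0.147).

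The Hpgd promoter, of the enzyme with the smallest p among the pathway genes, held 2 such matches, in capitals, that begin 95 and 64 bases before the start and do not overlap. Its window is chr8:56294302-56294601 on the plus strand of GRCm38.p6, from RefSeq.
Hpgd: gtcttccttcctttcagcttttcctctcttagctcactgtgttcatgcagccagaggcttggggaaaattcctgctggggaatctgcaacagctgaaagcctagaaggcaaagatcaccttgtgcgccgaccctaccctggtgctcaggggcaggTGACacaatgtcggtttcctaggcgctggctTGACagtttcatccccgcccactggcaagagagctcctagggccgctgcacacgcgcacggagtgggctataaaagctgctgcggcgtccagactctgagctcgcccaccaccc

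Of 16 other leukotriene and lipoxygenase genes 0 passed by limma and 0 by the unequal-variance test. At an unadjusted p under 0.05 there were 5 of 16, against 18.2% of all genes. Of the 16 values 12 were below 0, against 9014 of 18193 over all genes, with a median of -0.12. Dpep1, a dipeptidase that converts leukotriene D4 to E4, had the smallest p. Its brighter probe set read 6.34, 6.61, 5.92 and 6.80 on daDREAM arrays, against 7.11, 7.54, 6.87 and 6.94 on control arrays. All daDREAM values were lower. The daDREAM mean of 6.417 lay below the yardstick and the control mean of 7.115 above it, so the size of the difference is uncertain. The difference of -0.70 did not pass (limma adjusted p = 0.0910), although the mean of the Dpep1 probe sets did (-0.60, limma adjusted p = 0.0182). Its dimmer probe set averaged 5.95 ± 0.15 in daDREAM and 6.47 ± 0.02 in control ganglia (SD, n = 4 each), both below the yardstick, and fell by 0.51 (limma adjusted p = 0.00566 over probe sets).

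**Figure D5:**
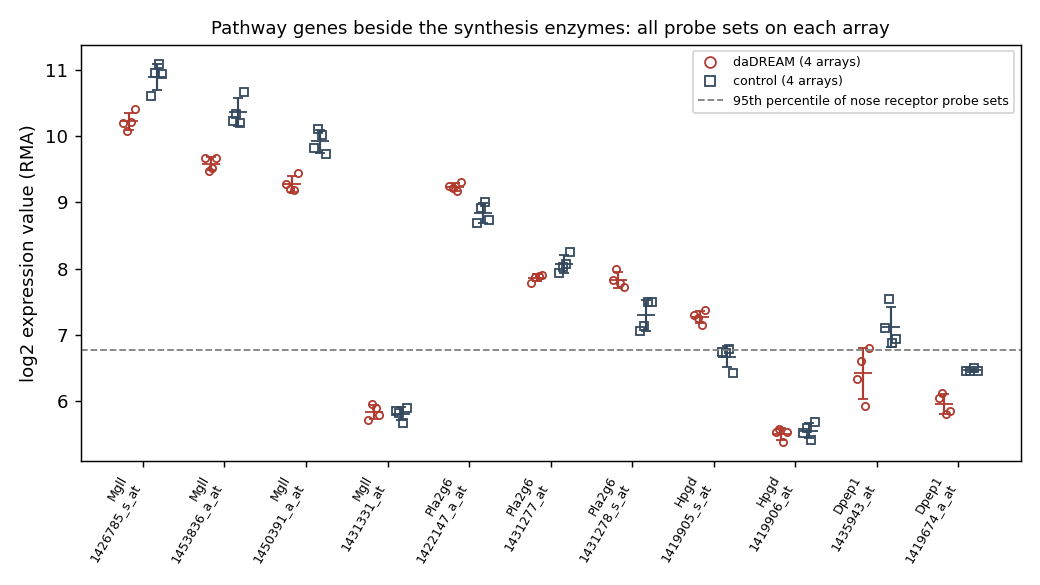
Log2 expression value (vertical axis) of every probe set of Mgll, Pla2g6, Hpgd and Dpep1 on each array, daDREAM as circles left of control as squares, with mean ± SD bars (n = 4 each) and the 95th percentile of nose receptor probe sets (6.78) as a dashed line. For Mgll 3 of 4 probe sets are lower in daDREAM without overlap, and the dimmest probe set of Mgll and of Hpgd shows overlapping groups. The Pla2g6 probe set of middle brightness is lower in daDREAM and the others are higher, each without overlap.

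Of 12 receptors for prostanoids and leukotrienes 0 passed by limma and 0 by the unequal-variance test, with a median of -0.06. At an unadjusted p under 0.05 there was 1 of 12, against 18.2% of all genes. The smallest p was that of Ptger2, the EP2 receptor for prostaglandin E2, which read 5.36, 5.24, 5.50 and 5.04 on daDREAM arrays, against 6.30, 5.76, 5.52 and 5.67 on control arrays. The groups did not overlap, but both lay below the yardstick, and the difference of -0.53 did not pass (limma adjusted p = 0.120).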

How the data were processed

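Values per probe set were deposited on a log2 scale by the authors, who used RMA (affy), per the submitters' processing notes; the sources used here give no versions. RMA subtracts background, quantile-normalizes the arrays together and combines the probes of a set, which makes every difference relative to the bulk of genes. From 45101 probe sets the 64 Affymetrix controls were removed; 34945 of the others carried 1 gene symbol, 932 several and 9160 none. Each gene was taken at its brightest probe set among those with that symbol alone. limma 3.58.1 (lmFit, eBayes; R 4.3.3) compared the groups in a two-sided test without covariates. Adjustment by Benjamini-Hochberg covered all genes or all probe sets (threshold 0.05). The scripts were tested on simulated data. The number of arrays limits the precision. Members, lists and the rule for named genes were chosen with earlier results of these data known. The rule took all members, in each pathway list up to 4 genes past the test or else the 1 with the smallest p, the 5 genes most like a member past the test, and Kcnip3. Alternatives covered the replicate block, normalization, a filter on dim probe sets, the variance prior, an unequal-variance test, array weights, the mean of a gene's probe sets and single arrays left out. Leaving out the arrays with the most Gh, Xist or Acta1 or the least Gfap was chosen after seeing the data. Figures were drawn with matplotlib 3.10.9.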

Additional observations from a re-analysis of the deposited data

Results flagged for a closer look

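In Hpgd, which rose in daDREAM ganglia, control replicate 4 read 6.43, apart from the 6.73 to 6.78 of the other control arrays. It was the 1 array that stood that far from its group among 66 groups of 4 arrays examined, where chance gives about 1 in 20. Without it the difference was 0.52 (limma adjusted p = 0.00470).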

How the results depend on the processing

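Of 642 values under alternatives for the differences of 33 genes and probe sets, 559 kept their direction and side of the threshold, 59 no longer passed, 6 passed that had not, and 18 changed sign. The count of synthesis enzymes past the test was 0 in place of 1 with a trended and robust variance prior, with the unequal-variance test, without each single array (0 in each case) and without the arrays with the most Gh, Xist or Acta1 or the least Gfap. The count of their probe sets was 0 in place of 1 with the unequal-variance test and without each single array (0 in each case). It was also 0 without the arrays with the most Gh or Acta1 or the least Gfap. Without the arrays with the most Xist the count stayed at 1, but a Ptges probe set passed in place of that of Alox5. Over all genes 364 passed, but 49 with the unequal-variance test, 229 to 349 without single arrays, with the fewest without daDREAM replicate 2 (229) and 3 (236), 98 without the arrays with the most Gh, 213 without those with the most Xist, 171 without those with the most Acta1 and 227 without those with the least Gfap. Over probe sets 1236 passed, but 166 with the unequal-variance test, 755 to 1271 without single arrays (755 without daDREAM replicate 2 and 783 without daDREAM replicate 3), and 392, 649 and 760 without the Gh, Acta1 and Gfap arrays. Of the other pathway genes 3 passed, but 0 with the unequal-variance test, 0 without the Gh arrays, 1 without the Xist arrays and 2 to 4 without single arrays.

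Deviations of same-numbered arrays from their group means had correlations of 0.251, 0.0149, 0.298 and 0.337, all of them positive. Correlations of arrays with unlike numbers ran from -0.2685 to 0.274, the highest for daDREAM replicate 1 with control replicate 2. The numbers were not taken as pairs in the main test, and a shared origin of same-numbered arrays was not tested. With the replicate block 672 genes, 2017 probe sets, 1 synthesis enzyme, 1 of its probe sets and 6 other pathway genes passed, among them Dpep1 (adjusted p = 0.0187) and Faah (adjusted p = 0.0452), which had not passed without it. Signs changed for differences near 0. With the mean of a gene's probe sets Ptgs2 was -0.0525 and Ptges -0.0592. Without the Gh arrays Hpgds was -0.0533 and the dimmest Mgll probe set -0.0183, which was -0.0175 without the Acta1 arrays. Kcnip3 was -0.0373 with renewed quantile normalization, -0.0169 with array weights and -0.085 without the Gfap arrays, and the dimmer Hpgd probe set was 0.0114 with renewed quantile normalization. Without single arrays the differences ran, for Ptgs2 from -0.035 to 0.095, Ptges from -0.0242 to 0.1192, Hpgds from -0.0075 to 0.0725, Kcnip3 from -0.0133 to 0.0933, the Ptges probe set with an adjusted p of 0.827 from -0.0108 to 0.1892 and the dimmest Mgll probe set from -0.0158 to 0.0725. The cause of these changes was not tested. Signal over background limits what can be said of Ptgs2 and Hpgds.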

Other observations

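Faah, Dagla and Abhd6, enzymes of endocannabinoid turnover, a path that shares arachidonic acid with the prostaglandins, read above 0 beside the lower Mgll. These 3 genes were named after their values were seen, and none passed as tested over all genes. Faah, the hydrolase of anandamide, averaged 9.23 ± 0.06 in daDREAM and 8.91 ± 0.12 in control ganglia (SD, n = 4 each), a difference of 0.32 (limma adjusted p = 0.0692) at its brighter probe set, without overlap of the groups, and 0.10 at the other, with overlap. Faah passed in 2 of 20 alternatives, one of them without control replicate 3 (0.37, limma adjusted p = 0.0431). Dagla, which makes 2-arachidonoylglycerol, differed by 0.26 (limma adjusted p = 0.123). Abhd6, another hydrolase of that lipid, differed by 0.22 (limma adjusted p = 0.129) at its brighter probe set. Its other probe set differed by 0.295, with overlap of the groups (limma adjusted p = 0.317 over probe sets). At the brightest probe set of Dagla and of Abhd6 all daDREAM values lay above all control values. Over all genes, the groups did not overlap in 10.7%.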
